A study of Rattus norvegicus with 6 samples.

Results

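The genes described here are 9 that make and load peptides for MHC class I molecules: the immunoproteasome subunits Psmb8, Psmb9 and Psmb10, the proteasome activator subunits Psme1 and Psme2, and the loading genes Tap1, Tap2, Tapbp and B2m. They were taken as every probe set, a group of short probes for 1 transcript, that the array annotation assigned to a single one of these symbols. This gave 12 probe sets among 31042 other than controls, and 9 genes among 14217 named on the array. Psme1, Tap1 and B2m had 2 probe sets each. Of the 12, 11 passed a filter on low signal, and the second Tap1 probe set (signals of 2.8 to 36.8) did not. All 9 genes kept at least 1 tested probe set.

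Gene expression of the embryonic rat fibroblast line 3Y1 was measured on Affymetrix rat genome arrays to look for genes that accompany transformation and tumor formation by the cytoplasmic domain of MUC1 (MUC1-CD). MUC1 is a membrane mucin whose short intracellular tail takes part in signalling. The 3 groups, each of 2 arrays labelled as biological replicates, were MUC1-CD cells grown in vivo as tumors, MUC1-CD cells grown in vitro, and 3Y1 cells with the empty vector (Vector) grown in vitro. All carried a stably transfected plasmid, and the labels do not say how many clones each transfected line represents. Tumors grew under the skin of the hindlimb of female athymic mice, whose age the labels do not state. Athymic mice lack a thymus and most mature T cells, while their innate immune cells, vessels and connective tissue remain, so tumor RNA can hold RNA of mouse cells. Vector cells were not profiled as tumors, so the effect of growth in the animal was measured in MUC1-CD cells alone.

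MHC class I molecules show short peptides of intracellular proteins at the cell surface, where cytotoxic T cells and natural killer cells read them. Proteasomes cut proteins into such peptides, and under interferon-gamma 3 catalytic subunits are exchanged for the immunoproteasome subunits, which changes the ends of the peptides. A transporter then moves peptides into the endoplasmic reticulum, where they are fitted into a heavy chain paired with beta-2-microglobulin. In mammalian cells interferon-gamma raises most of these genes through factors such as IRF1 and the coactivator NLRC5, and fibroblasts express many of them at a basal level.

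The genes lie in a few places in the rat genome. On chromosome 20, in the MHC, Tap2, Psmb8, Tap1 and Psmb9 were consecutive coding genes in the RefSeq annotation of GRCr8, with 0 coding genes between neighbours. Tap1 and Psmb9 are read in opposite directions, and their annotated start sites were 457 bases apart. Tapbp lay on the same chromosome, 20 coding genes beyond Psmb9. Psme1 and Psme2 shared chromosome 15 with 1 coding gene between them, Psmb10 was on chromosome 19 and B2m on chromosome 3.

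The start regions are shown because most of these genes share a short element there, the binding sequence of interferon regulatory factors. RefSeq windows from 250 bases before to 50 bases after the annotated start were found for all 9 genes and searched on both strands for GAAANNGAAA, an ISRE-like motif (interferon-stimulated response element). A match was present in 7 of 9 windows, against 3.92% of 33465 rat windows of the same length. The windows of Psmb5, Psmb6 and Psmb7, which encode the subunits that the immunoproteasome subunits replace, held 0 matches in 3. Each stretch below runs 5′ to 3′ on the gene's strand in build GRCr8, with the match in capitals. A match is only a run of letters, and no binding was measured.
Psmb10, chr19:50743344-50743377, minus strand: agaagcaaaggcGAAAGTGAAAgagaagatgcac
Psmb10, chr19:50743288-50743321, minus strand: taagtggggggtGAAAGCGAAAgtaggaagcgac
Psmb8, chr20:4657014-4657047, minus strand: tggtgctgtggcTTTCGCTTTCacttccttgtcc
Psme2, chr15:33052783-33052816, minus strand: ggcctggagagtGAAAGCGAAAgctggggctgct
Tap1, chr20:4668643-4668676, minus strand: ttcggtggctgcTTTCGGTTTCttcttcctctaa
Tap2, chr20:4652316-4652349, minus strand: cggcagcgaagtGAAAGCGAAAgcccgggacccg
Tapbp, chr20:4967876-4967915, minus strand: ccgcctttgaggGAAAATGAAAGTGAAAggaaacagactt
B2m, chr3:129549168-129549201, plus strand: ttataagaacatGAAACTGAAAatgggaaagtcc

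Psmb10 held 2 separate matches, which began 73 and 17 bases before the start site. Tapbp held 2 matches that overlapped each other, beginning 26 and 20 bases before it. In Psmb8 and Tap1 the match was on the opposite strand, so it reads as its reverse complement, and in Psmb8 it spanned the start site itself. The Psme2, Tap2 and B2m matches began 53, 41 and 150 bases before the start. In the windows of Psmb9 and Psme1 these letters were not found, and the Tap1 match lies 336 bases before the Psmb9 start, outside the Psmb9 window. A kappaB consensus, the element bound by NF-kappaB, was found in Tap1, Tapbp and B2m, 3 of 9, against 7.52% of all windows. In B2m the kappaB and ISRE-like matches were neighbours.

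**Figure D1:**
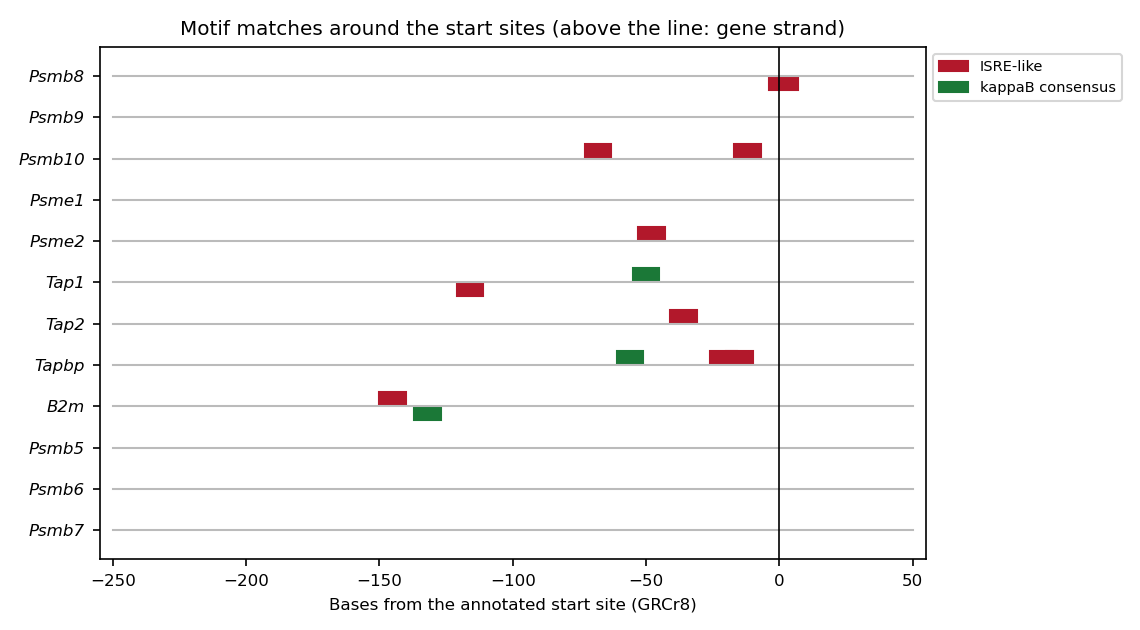
Matches to the ISRE-like and kappaB motifs in the window around each annotated start site, plotted as bases from the start (negative is upstream). Boxes above a line are on the gene's strand and boxes below it on the opposite strand, and 7 of the 9 genes hold an ISRE-like match while the 3 constitutive partners (bottom) hold 0.

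Values are MAS5 signals, a linear microarray intensity without a unit, scaled so that the arrays shared a trimmed mean of 500.2. Differences are between means of log2(signal + 16), a scale that understates changes of weak probe sets, with the standard error (SE), a 95% interval and an adjusted p from limma with Benjamini-Hochberg adjustment over 18625 probe sets. A gene was called changed at an adjusted p under 0.05, and the number of arrays limits the precision throughout. The Vector arrays stood apart from the others in RNA quality by the Gapdh control: its ratio of 3′ to 5′ signal was 1.11 and 1.14 in tumors, 1.18 and 1.11 in MUC1-CD culture, and 11.5 and 17.8 in Vector culture. For the beta-actin control the ratio was 3.25 and 2.97 in tumors, 3.37 and 3.28 in MUC1-CD culture, and 4.15 and 41.7 in Vector culture. By that control only Vector replicate 2 stood far apart. Vector replicates also differed more from each other, with an SD of the replicate difference of 0.616 log2 against 0.284 in tumors and 0.257 in MUC1-CD culture. Of 11 fibroblast markers all but Pdgfrb, which was at 68.3 to 367.9, had a signal of at least 808.1 on every array, such as the collagen chain Col1a2 at 9199.1 to 14609.5.

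The first comparison, MUC1-CD tumors against the same cells in culture, asks what accompanies growth in the animal and uses no Vector array as a group. All 3 immunoproteasome subunits and the activator subunit Psme1 were higher in tumors, by 1.59 to 2.71 times in mean signal. The transporter genes, tapasin and beta-2-microglobulin did not pass the test. By limma 4 of 9 genes were called higher and 0 lower (also 0 lower at an unadjusted p under 0.05), where 9.82% of the 10037 tested genes were called higher and 8.97% lower (18.8% in either direction). The median difference was 0.52 over the 9 genes and 0.03 over all genes tested. On the deposited scale both tumor arrays lay above both culture arrays for 7 of the 9, against 40% of all tested genes, and below them for 0 of the 9, against 35%.

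Psmb10 encodes the immunoproteasome subunit with trypsin-like activity (MECL-1). Its signal was 1592.8 and 1532.5 in tumors, 589.2 and 562.8 in MUC1-CD culture, and 1210.9 and 889.9 in Vector culture. The 3 groups did not overlap: tumors were highest and MUC1-CD culture lowest. In tumors it rose by 1.42 (SE 0.17, adjusted p = 0.00316) over MUC1-CD culture, a ratio of means of 2.71.

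Psmb8 encodes the subunit that replaces the chymotrypsin-like one (LMP7). Signals were 2355.2 and 2110.0 in tumors, 972.7 and 1156.8 in MUC1-CD culture, and 604.0 and 499.1 in Vector culture. Here too no groups overlapped, but the order was another one, with Vector culture lowest. Over MUC1-CD culture Psmb8 rose by 1.06 (SE 0.16, adjusted p = 0.00701) in tumors, a ratio of 2.10.

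Psmb9, the gene read away from Tap1, encodes the third immunoproteasome subunit (LMP2). It had 2615.6 and 2529.8 in tumors, 1402.5 and 1449.0 in MUC1-CD culture, and 1725.0 and 1148.4 in Vector culture. Tumors were above both cultures, and the Vector arrays enclosed the MUC1-CD culture arrays. The rise over MUC1-CD culture was 0.84 (SE 0.19, adjusted p = 0.0298), a ratio of 1.80.

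Psme1 and Psme2 encode the alpha and beta subunits of the PA28 activator, which caps the proteasome and opens its gate. Psme1 had 8058.5 and 7631.0 in tumors, 4881.5 and 4978.8 in MUC1-CD culture, and 6276.7 and 5494.3 in Vector culture. Tumors were highest and MUC1-CD culture lowest, without overlap, the same order as for Psmb10. Psme1 rose by 0.67 (SE 0.10, adjusted p = 0.00643) over MUC1-CD culture. Its second, much dimmer probe set differed by 0.60 (SE 0.26, adjusted p = 0.168).
For Psme2 the signals were 8316.4 and 8791.7 in tumors, 6792.5 and 6959.3 in MUC1-CD culture, and 4000.3 and 2898.4 in Vector culture. The groups did not overlap, and the order was that of Psmb8, with Vector lowest. Between tumors and MUC1-CD culture the Psme2 difference was 0.31 (SE 0.15, interval -0.05 to 0.67, adjusted p = 0.211), so it was not called. With only the 4 arrays of these groups in the fit it was called (adjusted p = 0.00157).

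Tap1 and Tap2 together form the peptide transporter. Tap1 had 585.3 and 938.7 in tumors, 517.0 and 504.9 in MUC1-CD culture, and 597.2 and 213.6 in Vector culture. The tumor replicates and the Vector replicates lay far apart, and the Vector arrays reached both below and above MUC1-CD culture. The tumor difference from MUC1-CD culture was 0.52 (SE 0.45, interval -0.55 to 1.59, adjusted p = 0.474), an interval that holds both no change and a change as large as that of Psmb10. Tap2 had 160.1 and 203.7 in tumors, 160.9 and 186.0 in MUC1-CD culture, and 178.1 and 111.1 in Vector culture. All groups overlapped, and the Tap2 difference of 0.06 (interval -0.57 to 0.68, adjusted p = 0.913) was small against its interval.

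Tapbp encodes tapasin, which holds the empty class I molecule at the transporter. Signals were 435.4 and 431.3 in tumors, 365.4 and 447.3 in MUC1-CD culture, and 503.5 and 325.2 in Vector culture. The groups overlapped, and tumors differed from MUC1-CD culture by 0.10 (interval -0.45 to 0.65, adjusted p = 0.821).

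B2m encodes the invariant light chain of every classical class I molecule. It had 19172.3 and 21140.8 in tumors, 16899.6 and 18292.6 in MUC1-CD culture, and 19634.5 and 21185.2 in Vector culture. MUC1-CD culture was below both other groups, which overlapped. The tumor difference was 0.20 (interval -0.0021 to 0.39, adjusted p = 0.162), and that of the second B2m probe set 0.29 (adjusted p = 0.135). The brightest signals of the arrays were 23341.8 to 30882.8, so B2m was read near the top of the scale, and saturation was not tested.

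**Figure D2:**
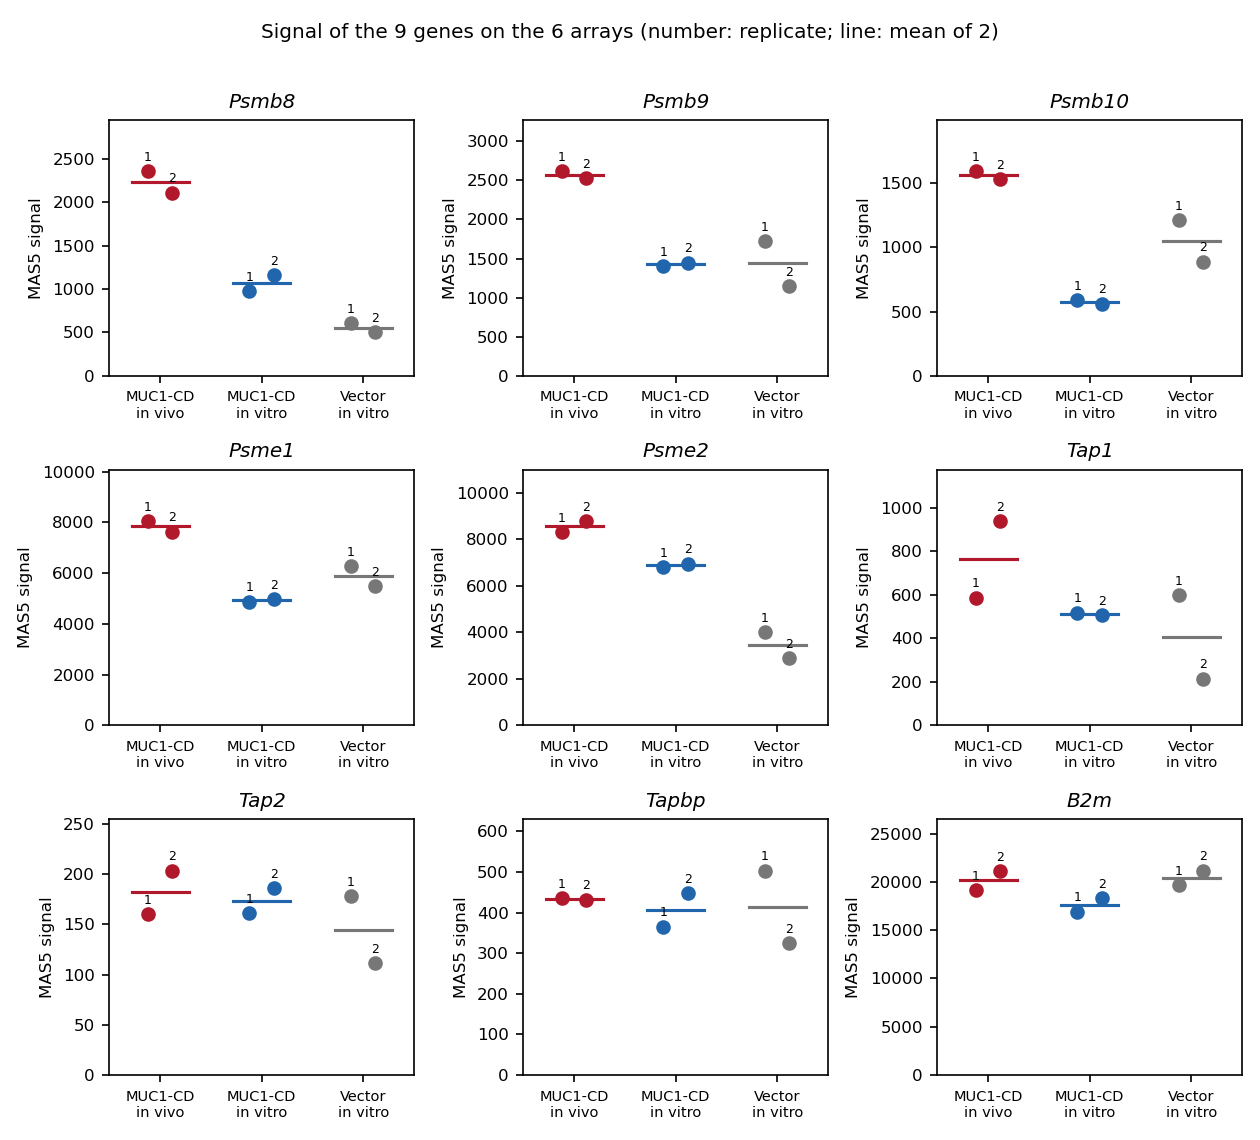
MAS5 signal (linear, no unit) of the 9 genes on each array, with MUC1-CD tumors, MUC1-CD culture and Vector culture running left to right, points numbered by replicate and lines at the mean of 2 arrays. Psmb8, Psmb9, Psmb10, Psme1 and Psme2 are highest in both tumors, and Psme2 was not called between tumors and MUC1-CD culture. Psmb10, Psme1 and B2m are lowest in MUC1-CD culture, Psmb8 and Psme2 are lowest in Vector culture, and the Tap1, Tap2 and Tapbp Vector arrays lie far apart.

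Dividing each array by its median signal, in place of the deposited scaling, lowered all differences between tumors and MUC1-CD culture, because the median signal was 130.4 and 124.5 in tumors and 103.9 and 107.2 in MUC1-CD culture. The median difference of all probe sets was 0.05 as deposited and -0.21 after that division. Relative to that median Psmb10 stood 1.37 higher as deposited and 1.36 higher after the division, Psmb8 1.01 and 1.00, Psmb9 0.79 and 0.78, and Psme1 0.62 and 0.61. Psmb9 lost its call after the division (0.57, adjusted p = 0.0742), while Psmb8, Psmb10 and Psme1 kept theirs. The differences of Tap2, Tapbp and B2m were positive as deposited and negative after the division, at -0.19, -0.16 and -0.08, so no direction is given for them.

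The number of calls changed with the arrays in the fit, over all tested probe sets as well as among the members. Without either Vector array the count of called members was higher, which by itself does not set them apart. Psmb8, Psmb9 and Psme1 lost their calls without any 1 of the tumor or MUC1-CD culture arrays, and Psmb10 did without tumor replicate 1. All these p values share 1 spread estimate that includes the Vector replicates. Their SD of the replicate difference was 0.616 log2, against 0.284 in tumors and 0.257 in MUC1-CD culture. Without a tumor or MUC1-CD culture array the Vector replicates make up a larger part of that estimate. A lost call therefore does not single out the array left out. Sizes moved little: leaving out any 1 array kept the difference of Psmb10 between 1.38 and 1.45, that of Psmb8 between 0.94 and 1.18, that of Psmb9 between 0.82 and 0.87 and that of Psme1 between 0.63 and 0.71.

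Tumors are mixed tissue, so fewer cells of a type and less RNA per cell cannot be told apart, and markers of other cells moved with the immunoproteasome genes. Of 17 macrophage markers on the array 12 were tested, of which 9 were higher and 1 lower in tumors than in MUC1-CD culture. The filter took the mean of all 6 arrays, so a marker low in both cultures could pass through its tumor signal alone. Hbb and Cdh1, given below, did so. For every marker list the count of tested genes called higher was therefore partly fixed by the filter and is no separate support. The summed signals did not depend on the filter. The summed signal of the 17 was 12082 to 12151 in tumors, 3435 to 3636 in MUC1-CD culture and 1432 to 1469 in Vector culture. Most of the sum in MUC1-CD culture was Cd14, at 2827.6 and 3051.6 there and 3248.1 and 3288.6 in tumors. Cd14 was not called between these groups (0.15, adjusted p = 0.519). Ptprc, the leukocyte common antigen, did not pass the filter and was not tested. Its signals were 65.3 and 63.1 in tumors, 3.2 and 23.0 in MUC1-CD culture, and 3.2 and 3.6 in Vector culture. Macrophages and other leukocytes are known to carry immunoproteasomes. For T, B and NK cells 1 of 17 markers on the array passed the filter and it was higher in tumors, with a summed signal over the 17 of 821.3 to 969.2 in tumors, 340.8 to 410.2 in MUC1-CD culture and 357.4 to 492.4 in Vector culture.
Among dendritic cell markers 1 of 3 tested was higher in tumors and 0 lower, with a summed signal of 2192 to 2476 in tumors, 1058 to 1108 in MUC1-CD culture and 400.7 to 443.7 in Vector culture. The higher one, Itgax, made up most of the sum in tumors (1765.4 and 2085.7) and in MUC1-CD culture (730.7 and 679.3). Endothelial markers were higher in tumors for 4 of 5 tested (summed signal 3032 to 3069 in tumors, 607.0 to 613.4 in MUC1-CD culture and 592.9 to 656.1 in Vector culture). Skeletal muscle markers were higher for 9 of 11 (12667 to 13570 in tumors, 3162 to 3256 in MUC1-CD culture and 10440 to 10891 in Vector culture). Most of the muscle sum in both cultures was Myh1, at 9778.9 and 10296.6 in Vector culture, 2805.7 and 2625.8 in MUC1-CD culture, and 4121.9 and 3929.3 in tumors. Erythroid markers were higher for 1 of 2, the hemoglobin chain Hbb at 3223.5 and 3309.4 in tumors against at most 13.9 in MUC1-CD culture. Of 8 epithelial markers 2 were tested. Cdh1, an adhesion protein, was called higher, with 537.2 and 424.7 in tumors, 1.1 and 5.2 in MUC1-CD culture, and 11.3 and 13.3 in Vector culture. The keratin Krt8 was not called between these groups, with 43.1 and 59.1 in tumors, 36.2 and 43.6 in MUC1-CD culture, and 449.8 and 424.3 in Vector culture. Fibroblast markers were higher for 3 and lower for 2 of 11, with a summed signal of 115840 to 120198 in tumors and 100957 to 101903 in MUC1-CD culture. The part of these cells, and of mouse RNA read by rat probes, in the tumor values of Psmb8, Psmb9, Psmb10 and Psme1 was not tested.

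The second comparison, MUC1-CD culture against Vector culture, asks what accompanies the MUC1 cytoplasmic domain in vitro. The members split: Psmb8 and Psme2 were higher with MUC1-CD, Psmb10 was lower, and the other 6 were not called. These 2 rises and 1 fall among 9 genes stand beside 21.2% of all tested genes called higher and 24.9% called lower, so the share called was below the background of 46.1% in either direction. The median difference was 0.02 for the 9 genes and -0.04 for all genes tested. Every MUC1-CD array lay above every Vector array for Psmb8 and Psme2, 2 of 9 against 33.9% of all genes, and below it for Psmb10, Psme1 and B2m, 3 of 9 against 39.1%.

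Psme2 was 1.99 times its Vector level in mean signal, a difference of 1.01 (SE 0.15, adjusted p = 0.00222). Psmb8 was 1.93 times its Vector level, with a difference of 0.93 (SE 0.16, adjusted p = 0.00376). Psmb10 fell by 0.83 (SE 0.17, adjusted p = 0.00781), a ratio of 0.548. So 2 subunits of the same complex, Psmb8 and Psmb10, were called in opposite directions, and these 3 calls kept their direction when each array was divided by its median and under quantile normalization. The Psmb10 call was lost without MUC1-CD culture replicate 1 (adjusted p = 0.0519) and without MUC1-CD culture replicate 2 (adjusted p = 0.0663), at differences of -0.87 and -0.80. Leaving out either Vector array changed which members were called, and the number called over all tested probe sets also varied with the array left out.

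The other activator subunit, Psme1, differed by -0.25 (SE 0.10, adjusted p = 0.0741), and B2m by -0.21 (SE 0.08, adjusted p = 0.0742). Both were called lower when each array was divided by its median, at -0.58 and -0.54, and B2m was at 0.12 under quantile normalization, the opposite sign. Psmb9 differed by 0.02 (adjusted p = 0.947), Tap1 by 0.49 (adjusted p = 0.410), Tap2 by 0.27 (adjusted p = 0.442) and Tapbp by -0.0022 (adjusted p = 0.995). Single Vector arrays moved several of these values. Psmb9 was called higher without Vector replicate 1 (0.31, adjusted p = 0.0128) and lower without Vector replicate 2 (-0.27, adjusted p = 0.0229). Tap1 was called higher without Vector replicate 1 (1.20, adjusted p = 0.000794) and was at -0.22 without Vector replicate 2 (adjusted p = 0.413). Tap2 was at 0.57 and -0.04 in these fits and Tapbp at 0.30 and -0.31, neither called.
Vector arrays had the high Gapdh 3′ to 5′ ratios given above, and the part of RNA quality in these differences was not tested. Fits without Vector replicate 1 rest on Vector replicate 2 alone for that group, the array with the highest Gapdh and beta-actin ratios. P values against Vector share 1 spread estimate with the other groups, whose replicates were closer together.

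The third comparison, MUC1-CD tumors against Vector culture, spans both steps and shares arrays with each of the others, so it is no independent evidence. Psmb8, Psmb9, Psmb10, Psme1 and Psme2 were called higher, 5 of 9 genes, and 0 were lower by limma (also 0 at an unadjusted p under 0.05), where 24.8% of all tested genes were called higher and 26.6% lower (51.4% in either direction). The same 5 genes had both tumor arrays above both Vector arrays, against 37% of all tested genes. The other 4 overlapped, so 0 lay wholly below, against 38.6%. Psmb8 showed the widest difference of the 9, at 1.99 (SE 0.16, adjusted p = 0.000149), or 4.05 times the Vector mean. Psme2 differed by 1.32 (SE 0.15, adjusted p = 0.000595), a ratio of 2.48, and Psmb9 by 0.86 (adjusted p = 0.0094).
Psmb10 differed by 0.58 (SE 0.17, adjusted p = 0.027) and Psme1 by 0.42 (SE 0.10, adjusted p = 0.0116). Their direction depended on the scaling: with each array divided by its median they were at -0.0075 and -0.18 and not called, since that division moved the median of all probe sets to -0.46, against 0.12 as deposited. Psmb9 lost its call there (0.27, adjusted p = 0.257) and B2m was called lower (-0.62, adjusted p = 0.00132), which left 2 members higher and 1 lower. Relative to the median of all probe sets Psmb10 was 0.46 higher as deposited and 0.45 higher after the division. For Tap1 the difference was 1.01 (SE 0.45, adjusted p = 0.0998), and for B2m -0.02 (adjusted p = 0.864). Without either tumor array only Psmb8 and Psme2 of the 9 were called, and without either MUC1-CD culture array 4 were, Psmb10 being lost. Without Vector replicate 1 more members were called, and the number called over all tested probe sets also varied with the array left out.

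**Figure D3:**
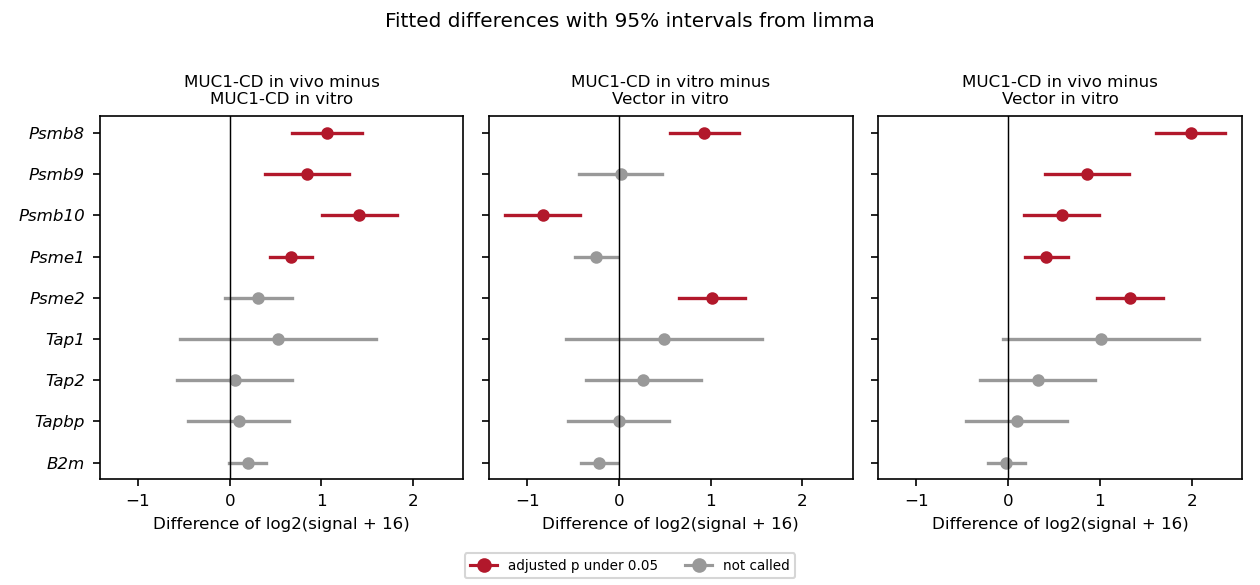
Fitted differences of log2(signal + 16) with 95% intervals for the 9 genes in the 3 comparisons, red where the adjusted p is under 0.05 over all probe sets. Psmb8 lies to the right of 0 in each panel, Psmb10 is on opposite sides of 0 in the first and second panels, and the Tap1 interval is wide; in the third panel Psmb10 and Psme1 change sign when each array is divided by its median.

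Side by side, the members therefore followed more than 1 pattern over the groups. Psmb8 was higher in MUC1-CD culture than in Vector culture by 0.93 and higher again in tumors than in MUC1-CD culture by 1.06. Psme2 differed by 1.01 between the cultures and by 0.31 between tumors and MUC1-CD culture. Psmb10 was at -0.83 between the cultures and 1.42 between tumors and MUC1-CD culture, and Psmb9 was at 0.02 and 0.84. The MUC1-CD culture arrays enter both of these differences with opposite sign, so a low value there lowers one and raises the other.

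The constitutive subunits that the immunoproteasome subunits replace were measured for 2 of 3. The probe set that lists Psmb6 names 2 genes and was left unnamed. Psmb5, the chymotrypsin-like subunit that Psmb8 replaces, had 6807.2 and 5992.5 in tumors, 5825.0 and 5833.9 in MUC1-CD culture, and 5284.2 and 4469.7 in Vector culture. Tumors were above MUC1-CD culture by a small margin, with a difference of 0.13 (adjusted p = 0.485), against 1.06 for Psmb8. Another tested Psmb5 probe set, much dimmer, was at -0.36 (adjusted p = 0.51). Psmb7, replaced by Psmb10, had 3896.7 and 3988.4 in tumors, 4732.2 and 4943.6 in MUC1-CD culture, and 4048.6 and 3658.4 in Vector culture. It differed by -0.29 (adjusted p = 0.0898) between tumors and MUC1-CD culture, against 1.42 for Psmb10. With each array divided by its median Psmb7 was called lower in this comparison (-0.56, adjusted p = 0.012), and Psmb5 was at -0.14, the opposite sign. In MUC1-CD culture Psmb7 was called higher than in Vector culture (0.33, adjusted p = 0.0308), a call lost when arrays were divided by their median, while Psmb10 was called lower.

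The rest of the proteasome did not move as a block. For tumors against MUC1-CD culture, here and in the lists below, 9.82% of all tested genes were called higher and 8.97% lower. Of 16 other core subunits and assembly factors, 3 were higher and 1 lower in tumors than in MUC1-CD culture, with a median of 0.07. The higher ones were the alpha-ring subunit Psma7 (0.57, adjusted p = 0.00915) and the assembly chaperones Psmg4 (0.68, adjusted p = 0.0239) and Psmg3 (0.70, adjusted p = 0.0366). Psma2, another alpha-ring subunit, was lower by -0.40 (adjusted p = 0.025). After each array was divided by its median these 3 calls were lost, and 0 of the 16 were higher and 4 lower.
Of 21 subunits and assembly factors of the 19S regulator, which recognises ubiquitin-tagged proteins, 1 was higher and 1 lower, with a median of -0.11. They were the ubiquitin receptor Adrm1 (0.98, adjusted p = 0.0099) and the assembly chaperone Psmd5 (-0.72, adjusted p = 0.0065). With the division by the median 1 was higher and 7 lower. Among the other activators and the inhibitor of the proteasome 0 of 2 tested were called by limma in either direction, also at an unadjusted p under 0.05. Of 8 cytosolic peptidases, which trim or destroy peptides, 0 were higher and 3 lower by limma (0 and 3 at an unadjusted p under 0.05), with a median of -0.40. Tpp2, a giant peptidase that acts after the proteasome, had 870.5 and 874.2 in tumors and 1447.1 and 1534.1 in MUC1-CD culture, a difference of -0.76 (adjusted p = 0.0131). The insulin-degrading enzyme Ide was at -0.69 (adjusted p = 0.011) and its relative Nrdc at -0.53 (adjusted p = 0.044). In these 4 lists 0 genes were called without any 1 of the tumor or MUC1-CD culture arrays. More were called without either Vector array, and the number called over all tested probe sets also varied with the array left out. These list counts by themselves do not set the lists apart.

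Between the cultures these lists were mixed as well. For this comparison, here and in the lists below, 21.2% of all tested genes were called higher and 24.9% lower. MUC1-CD culture had 3 of the 16 core and assembly genes higher than Vector culture and 4 lower, among them the beta subunit Psmb3 (-0.79, adjusted p = 0.000781) and Psmg3 (-1.21, adjusted p = 0.00162). In the 19S regulator 4 of 21 were higher and 0 lower by limma (7 and 1 at an unadjusted p under 0.05), led by Psmd10 (0.70, adjusted p = 0.00289) and Psmd13 (1.11, adjusted p = 0.00359). Among the peptidases 2 of 8 were lower, Lap3 (-0.91, adjusted p = 0.00363) and Npepps (-0.77, adjusted p = 0.0146). Lap3 encodes leucine aminopeptidase, which interferon-gamma is known to induce in human cells. Division by the median gave 0 higher and 8 lower among the core and assembly genes, and 3 higher and 4 lower in the 19S regulator. The number of 19S genes called varied with the array left out, as did the number over all tested probe sets.

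The folding and trimming partners of the endoplasmic reticulum showed no call by limma between tumors and MUC1-CD culture, 0 of 9 tested (0 higher and 2 lower at an unadjusted p under 0.05), with a median of -0.03. After division by the array median 2 were called lower, Canx (-0.80, adjusted p = 0.0147) and Sec61b, a subunit of the translocation channel (-0.64, adjusted p = 0.00655), and under quantile normalization Canx was (adjusted p = 0.0485). Leaving out either Vector array gave calls in both directions, and the number called over all tested probe sets also varied with the array left out. The calcium-binding chaperones were at 0.07 for Calr (adjusted p = 0.846) and -0.53 for Canx (adjusted p = 0.0598). A second Canx probe set was called lower (-0.42, adjusted p = 0.0427). Pdia3, the disulfide isomerase bound to tapasin, differed by 0.27 (adjusted p = 0.220), and its second, much dimmer probe set by -0.42 (adjusted p = 0.247), the opposite sign. Erap1, which trims peptides to class I length, differed by 0.21 (adjusted p = 0.328), and another of its probe sets was called higher (0.47, adjusted p = 0.0292). Between the cultures Calr (0.59, adjusted p = 0.0374) and the glycoprotein folding sensor Uggt1 (2.45, adjusted p = 0.000291) were higher with MUC1-CD and 0 of 9 were lower (also 0 at an unadjusted p under 0.05). With arrays divided by their median the Calr call was lost and 2 were called lower, Ganab, a glucosidase subunit (-0.92, adjusted p = 0.0256), and Erap1 (-0.46, adjusted p = 0.0355).

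The class I heavy chains, which present the peptides, are encoded in rats by many near-identical RT1 genes, so a probe set can read several copies and each value is uncertain as to its gene. Of 40 listed genes 15 were on the array and 9 were tested. The 9 included Fcgrt and Hfe, which are not RT1 genes, and no RT1-A gene. Of the 9, 1 was called higher and 0 lower by limma in tumors than in MUC1-CD culture (4 and 0 at an unadjusted p under 0.05), with a median of 0.37. Further ones were called higher without either Vector array, and the number called over all tested probe sets also varied with the array left out. The called one, RT1-S3, encodes a non-classical class I chain. It had 849.9 and 965.2 in tumors, 136.6 and 139.2 in MUC1-CD culture, and 151.8 and 158.3 in Vector culture. Tumors stood far above both cultures, by 2.58 (SE 0.16, adjusted p = 0.000281) over MUC1-CD culture. Against Vector culture, MUC1-CD culture had 2 of 9 higher and 3 lower, Hfe (-2.12, adjusted p = 0.00422) being among the lower ones. RT1-M3-1, whose mouse counterpart presents formylated peptides, had 871.7 and 868.7 in MUC1-CD culture and 421.5 and 464.2 in Vector culture (0.95, adjusted p = 0.00162). RT1-CE12 had 856.6 and 763.5 in MUC1-CD culture and 1216.2 and 1442.1 in Vector culture (-0.70, adjusted p = 0.00789).

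Among 17 tested regulators of class I transcription, 3 were higher and 1 lower in tumors than in MUC1-CD culture, with a median of 0.07. Irf1, a factor that binds ISRE-like elements and is itself induced by interferon-gamma, had 2069.4 and 2158.8 in tumors, 1118.1 and 1040.3 in MUC1-CD culture, and 925.8 and 796.9 in Vector culture. Tumors were well above both cultures, and Irf1 rose by 0.96 (SE 0.13, adjusted p = 0.00504) over MUC1-CD culture. Nfkb1, the p50 subunit of NF-kappaB, was higher by 0.47 (adjusted p = 0.0422) and Irf2, which binds the same elements as Irf1, by 0.58 (adjusted p = 0.0476). Rfx5, part of the complex on the X box of MHC promoters, was lower by -0.55 (adjusted p = 0.0453). The calls of Nfkb1 and Irf2 were lost when arrays were divided by their median, and those of Irf1 and Rfx5 were not. That division also made Jak1 (-0.44, adjusted p = 0.0175), Nfyb (-0.53, adjusted p = 0.0391) and Stat2 (-0.69, adjusted p = 0.0221) called lower, for 1 higher and 4 lower in all. The calls of Irf1, Nfkb1, Irf2 and Rfx5 were lost without any 1 of the tumor or MUC1-CD culture arrays. More of the 17 were called without either Vector array, and the number over all tested probe sets also varied with the array left out.
Between the cultures 6 of the 17 regulators were higher with MUC1-CD and 4 lower, where 21.2% of all tested genes were called higher and 24.9% lower. With arrays divided by their median 4 were higher and 6 lower. The 6 included Rfxank (-2.51, adjusted p = 0.00237), which is not among the 17 because it passed the filter only after rescaling. Stat2 (1.34, adjusted p = 0.000809) and Irf9 (1.06, adjusted p = 0.0019), which act together in the response to type I interferon, were higher. Nfkb1 was also higher (0.96, adjusted p = 0.00103), and Rfx5 was lower (-0.98, adjusted p = 0.00204). Whether these regulators act on the members was not measured.

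**Figure D4:**
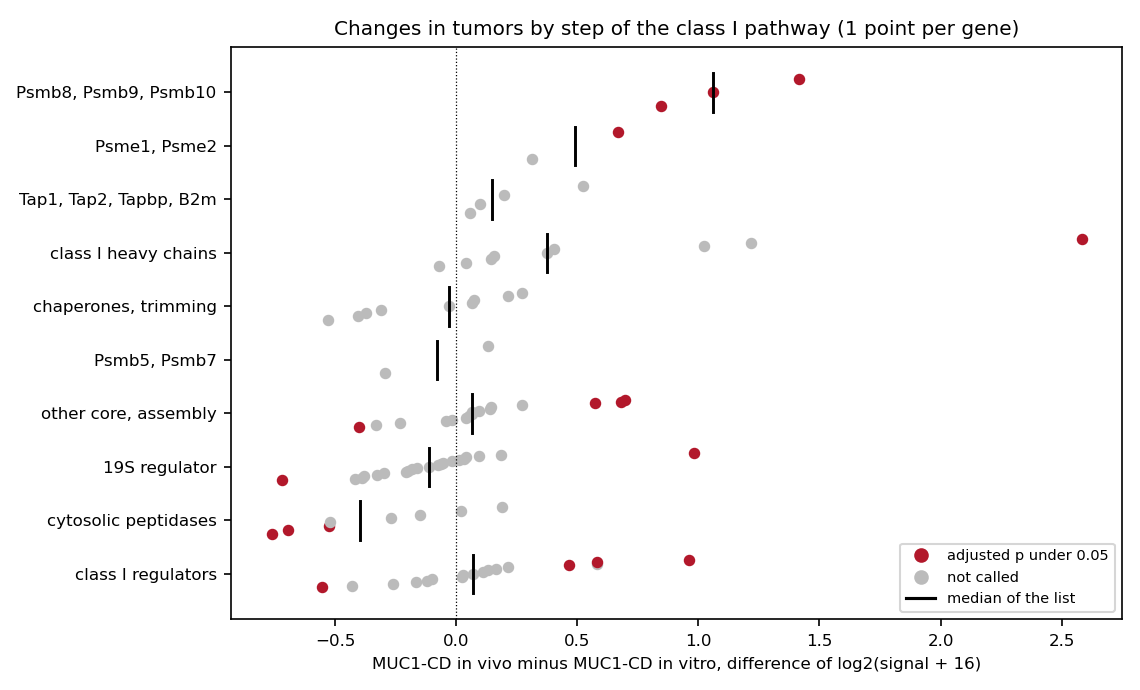
Differences of log2(signal + 16) between MUC1-CD tumors and MUC1-CD culture, 1 point per tested gene, by step of the class I pathway, with called genes in red and list medians as bars. All of Psmb8, Psmb9 and Psmb10 lie between 0.84 and 1.42, the constitutive partners Psmb5 and Psmb7 lie at 0.13 and -0.29, and RT1-S3 is the point at 2.58. All points move left by about the same amount when each array is divided by its median, and Tap2, Tapbp and B2m then change sign.

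To describe what else followed the average of the 9 genes, each gene's log2 values were centred over the 6 arrays and compared with the members' mean profile. That profile was 0.39 and 0.48 in tumors, -0.19 and -0.09 in MUC1-CD culture, and -0.05 and -0.54 in Vector culture. The 5 nearest of 10028 other genes by root mean square difference were Phaf1 (0.0776), Camk1 (0.0787), Depdc5 (0.0818), Vamp8 (0.0839) and Nsmce1 (0.0863). Among the members Psmb9 was closest to the mean profile at 0.121, and Psmb8 was farthest at 0.529, so the mean profile describes few of them well. The profiles rest on 6 arrays in 3 groups, and many genes share such a shape.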

How the data were processed

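RNA of 6 samples was hybridised to 1 array each. Per the submitters' processing notes the authors used MAS5, which gives each probe set 1 linear intensity (signal). No version or detection call was at hand, and the scaling of the deposited intensity values was kept.

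Of 31042 probe sets other than controls, 20826 named 1 gene in the platform annotation, 436 named several and were left unnamed, and 9780 were not listed. The filter required a mean signal of at least the 40th percentile (61.6), which 18625 passed. In limma 3.58.1 (R 4.3.3), log2(signal + 16) was fitted with group as the only term, all 6 arrays sharing 1 spread (3 residual degrees of freedom), then eBayes with a trend, with 2-sided p adjusted by Benjamini-Hochberg. Where several probe sets of a gene passed, the brightest on average stood for it. The code was tested on simulated data.

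The members and lists were chosen with earlier results of these data known. Named genes were the members, Psmb5, Psmb6, Psmb7, Calr, Canx, Pdia3 and Erap1, up to 4 genes with the smallest p per pathway list and comparison, and the 5 nearest profiles. Hbb, Ptprc, Col1a2, Pdgfrb, Cdh1, Krt8, Cd14, Itgax and Myh1, from the marker lists, were picked after their values were seen. So were Sec61b, Jak1, Nfyb, Fcgrt and Rfxank, from the pathway lists. Same-numbered replicates did not deviate together (correlations of -0.04, -0.03 and -0.02), and the main fit used no pairing. With 2 arrays a group these correlations cannot exclude a pairing. No separate cultures or animals are described for the replicates beyond their label, so p values may measure technical spread. With 2 arrays a group, no exact permutation test of 1 gene can pass the threshold and none was run. Symbols, neighbours and start windows are from RefSeq, build GRCr8. Alternatives were other pseudocounts (1 and 64), filters, scalings, array sets, variance models, a replicate block and each array left out.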

Additional observations from a re-analysis of the deposited data

How the results depend on the processing

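The 12 member differences that were called kept their sign in 190 of 192 alternative values, the exceptions being Psmb10 (-0.0075) and Psme1 (-0.18) in tumors against Vector culture with each array divided by its median. That scaling gave 5 called members for MUC1-CD culture against Vector culture (3 as deposited) and 3 for tumors against Vector culture (5 as deposited), and moved the share of calls that were higher to 33.2% (54.7% as deposited) for MUC1-CD culture against Vector culture, 22.3% (53.9%) for tumors against MUC1-CD culture and 25.1% (56.5%) for tumors against Vector culture. With only the arrays of both groups, tumors against MUC1-CD culture had 7 called members (4 with all arrays) and 8049 called probe sets (2952 with all arrays). Leaving out 1 array at a time, where the single array left in a group borrows the spread of the others, gave 0 to 7 called members and 572 to 8097 probe sets for tumors against MUC1-CD culture, 2 to 6 and 4391 to 11503 for MUC1-CD culture against Vector culture (8522 with all arrays), and 2 to 8 and 5884 to 12434 for tumors against Vector culture (9589 with all arrays). For tumors against Vector culture the count of 8 came without Vector replicate 1, and that of 2 without either tumor array. For MUC1-CD culture against Vector culture it was 6 without Vector replicate 1 and 5 without Vector replicate 2, and Psmb9 ranged from -0.27 without Vector replicate 2 to 0.31 without Vector replicate 1. With the replicate block 4, 4 and 5 members were called in the 3 comparisons (MUC1-CD culture against Vector culture, tumors against MUC1-CD culture, tumors against Vector culture), B2m being added in the first (adjusted p = 0.0428), and 8130, 2390 and 9208 probe sets. Without the variance trend Psmb9 lost its call between tumors and MUC1-CD culture (adjusted p = 0.0576) and Psme1 between tumors and Vector culture (adjusted p = 0.0526). The cause of these changes was not tested. With 2 arrays a group, small differences such as those of Tap2 and Tapbp could not be resolved.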
